A study of Mus musculus with 32 samples.

Results

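The genotype by treatment interaction asks, for each gene, whether the colon of mice without Myd88 responded to treatment by a different amount than the colon of wild type mice. It was computed as treated knockout minus untreated knockout, minus the same difference in wild type, so a value above 0 means that the gene was raised more, or lowered less, in the knockout. All 32 of 32 arrays entered it, and 34945 of the 45101 probe sets carried exactly 1 gene symbol and were used, which covered 18193 genes.

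The samples were distal colon of C57 BL6NCr mice on Affymetrix expression arrays. Each array is called a mouse here: the study describes biological repeats and does not say whether tissue of several mice was pooled. They comprised 10 treated wild type (WT), 10 treated Myd88-/- (knockout, KO), 6 untreated WT and 6 untreated KO mice. Treated mice of both genotypes were labelled with colitis. At 6 to 8 weeks of age they had received azoxymethane (AOM), a colon carcinogen of rodents, by intraperitoneal injection, at 10 mg/kg in 0.2 ml of saline, and, 1 week later, 2% dextran sodium sulfate (DSS), which damages the epithelial lining, in their water for 3 days, after which they were killed. The labels of untreated mice give neither an age nor a sham procedure, so treatment here includes the injection and handling, and the genotype of untreated WT mice is given by the sample title alone. The KO line had been backcrossed to the strain of the controls.

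MyD88 is the adaptor through which most Toll-like receptors and the receptors of IL-1 and IL-18 signal to NF-kappaB and MAP kinases. In the gut this route senses bacterial products and epithelial damage, and IL-18 is made by the epithelium itself. After chemical injury the colon epithelium is renewed from crypt stem cells under growth factors and cytokines such as IL-6, IL-11 and IL-22, which signal through STAT3.

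The targeted gene was read first. Myd88 signal (log2, after quantile normalization, as for all levels below) had a median of 8.44 in untreated WT mice (8.23 to 8.51), 8.49 in treated WT mice (8.26 to 8.61), 7.69 in untreated KO mice (7.53 to 7.81) and 8.08 in treated KO mice (7.50 to 8.31). Every untreated KO mouse was below every untreated WT mouse, as for 0.605% of genes, and the KO minus WT difference was -0.73 ± 0.11 (± standard error, SE) in untreated and -0.46 ± 0.09 in treated mice. The deleted stretch of Myd88 is not described in the labels, and the transcript detected by the probe set was still well above the floor of the scale (3.32) in KO mice, so its level is a check of the labels only as far as it is lower. The interaction for Myd88 was 0.27 ± 0.14 and did not pass the test (limma, Benjamini-Hochberg adjusted p = 0.473). Epithelial markers, which check the tissue label, were bright: the mean of 8 such genes lay between 11.5 and 12.3 on all 32 arrays. A signal of whole tissue cannot tell fewer cells of a type apart from less RNA per cell.

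Among all genes the interaction passed the test (limma, two-sided, adjusted p under 0.05 by Benjamini-Hochberg across the 18193) for 10 genes, or 0.0550% of those tested. It was above 0 for 9 genes (0.0495%) and below 0 for 1 gene (0.00550%). Those above 0 were A4galt, Wsb2, Ppp4r1, Maff, Coq10b, Egln3, Sdcbp2, Nckap5l and the predicted gene Gm31881, and the one below 0 was Anapc2. At an unadjusted p under 0.05 stood 2128 genes (11.7%), of which 1186 (6.52%) had an interaction above 0 and 942 (5.18%) below 0. In the same fit 3404 genes (18.7%) passed for the KO response and 332 (1.82%) for the WT response, and the 236 genes that passed for both moved in the same direction in both. The median SE of an interaction was 0.20, against 0.14 for either response, since the interaction carries the error of 4 group means. Of the 3404 genes that changed in KO mice, 8 also passed the interaction test. A change in KO mice that missed the threshold in WT mice is therefore, for most genes here, not shown to differ between the genotypes. The count of 10 depended on single arrays: it was 164 without treated KO mouse 9, 36 without treated KO mouse 6 and 18 without treated WT mouse 9, and it was 6 or fewer without any one of 21 other arrays.

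**Figure D1:**
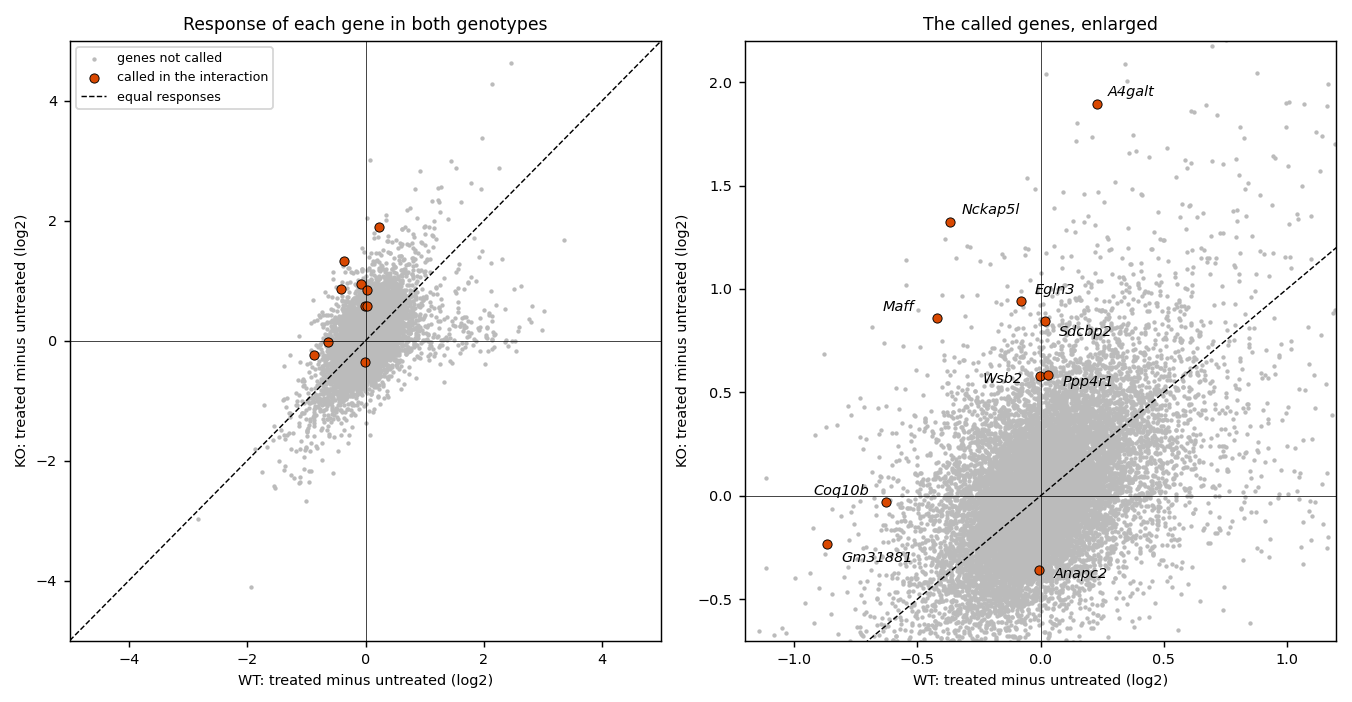
Response to treatment of each gene in WT mice (x axis, log2) and in KO mice (y axis, log2), for all 18193 genes on the left and enlarged around the 10 genes that passed the interaction test on the right. Orange points are the genes that passed; the vertical distance from the dashed line of equal responses is the interaction. A4galt and Nckap5l lie farthest above the line, and Anapc2 is the one called gene below it.

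Promoter sequences are shown for 5 called genes whose windows held one of the motifs searched, since the genes were called in the same contrast and several are known to respond to stress or low oxygen. They are the 250 bases before the annotated start, on the gene's own strand, from RefSeq on the mouse build GRCm38.p6. Of the 10 genes, 9 had an entry. Each window was searched on both strands for the core of the hypoxia response element (ACGTG), the AP-1 site (TGANTCA), the cyclic AMP response element or CRE (TGACGTCA), an NF-kappaB site, a STAT site (TTCNNNGAA) and a TATA box (TATAAA). These letters occur in 16.6%, 6.75%, 1.55%, 1.41%, 7.02% and 12.4% of 32851 windows of the same length. Capitals mark the matches.
A4galt: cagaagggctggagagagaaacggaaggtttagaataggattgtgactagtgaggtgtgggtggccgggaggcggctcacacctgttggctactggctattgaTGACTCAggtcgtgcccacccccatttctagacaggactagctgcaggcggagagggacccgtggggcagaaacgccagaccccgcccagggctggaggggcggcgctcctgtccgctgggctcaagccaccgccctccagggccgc
Egln3: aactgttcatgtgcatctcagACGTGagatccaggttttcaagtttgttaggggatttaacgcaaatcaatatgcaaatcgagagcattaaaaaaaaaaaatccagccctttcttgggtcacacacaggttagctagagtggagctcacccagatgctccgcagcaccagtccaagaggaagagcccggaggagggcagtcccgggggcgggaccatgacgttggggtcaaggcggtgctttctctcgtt
Maff: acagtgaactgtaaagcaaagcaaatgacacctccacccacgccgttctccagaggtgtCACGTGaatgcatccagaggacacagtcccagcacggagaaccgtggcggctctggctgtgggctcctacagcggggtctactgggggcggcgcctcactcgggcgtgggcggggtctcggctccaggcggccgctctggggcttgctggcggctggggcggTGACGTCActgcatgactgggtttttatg
Coq10b: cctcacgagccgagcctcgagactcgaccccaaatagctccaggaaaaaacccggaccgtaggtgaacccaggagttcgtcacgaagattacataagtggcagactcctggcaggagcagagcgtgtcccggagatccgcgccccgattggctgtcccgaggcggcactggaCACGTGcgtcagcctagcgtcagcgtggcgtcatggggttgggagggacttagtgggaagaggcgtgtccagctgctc
Sdcbp2: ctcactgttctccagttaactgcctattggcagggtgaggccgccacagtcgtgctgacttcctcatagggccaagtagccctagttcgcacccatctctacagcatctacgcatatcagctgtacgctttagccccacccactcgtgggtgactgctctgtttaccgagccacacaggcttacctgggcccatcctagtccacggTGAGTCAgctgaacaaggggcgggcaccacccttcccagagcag

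The A4galt window (chr15:83251730-83251979, minus strand) holds an AP-1 site that begins 147 bases before the start, and the Sdcbp2 window (chr2:151572373-151572622, plus strand) holds one that begins 44 bases before it. In Egln3 (chr12:54203875-54204124, minus strand) the hypoxia response core begins 229 bases before the start. Coq10b (chr1:55052520-55052769, plus strand) and the Maff window shown (chr15:79347270-79347519, plus strand) hold CACGTG, a palindrome that contains the hypoxia response core on both strands and is also the E-box of other factors. It begins 78 bases before the start in Coq10b and 191 bases before it in Maff, which also has a CRE 29 bases before its start. The other Maff starts in the table, and the windows of Wsb2, Nckap5l and Anapc2, held none of the motifs, and windows of Gm31881 held a STAT site and TATA boxes. A match describes the sequence and is not evidence that a factor binds there.

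Egln3 and Maff are called genes known to be induced by low oxygen or by stress. Egln3 encodes PHD3, an oxygen-dependent prolyl hydroxylase that marks HIF proteins for degradation and is itself a HIF target. Its signal had a median of 9.70 in untreated WT mice (9.51 to 9.79), 9.58 in treated WT mice (9.31 to 9.83), 9.34 in untreated KO mice (9.09 to 9.65) and 10.43 in treated KO mice (9.36 to 10.69). The high values were those of treated KO mice: 9 of 10 lay above the highest untreated KO value and 8 of 10 above the highest treated WT value, and of the others mouse 6 (9.79) overlapped treated WT mice and mouse 9 (9.36) both groups. Counts of part of a group, here and below, were not set against a share of all genes. For called genes, separation of the groups is not independent of the call. The response was 0.94 ± 0.14 in KO and -0.08 ± 0.14 in WT mice, which gave an interaction of 1.02 ± 0.20 (limma, adjusted p = 0.0468). Part of it lay in untreated mice, where KO minus WT was -0.34 ± 0.16 (limma, adjusted p = 0.674, not past the threshold). A second Egln3 probe set, which was not used to represent the gene, gave 1.09.

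Maff encodes a small Maf protein, a transcription factor without an activation domain that pairs with other leucine zipper factors. Its median was 7.00 in untreated WT mice (6.69 to 7.17), 6.53 in treated WT mice (6.21 to 7.07), 6.49 in untreated KO mice (6.26 to 6.90) and 7.49 in treated KO mice (6.44 to 8.09). The responses had opposite signs, -0.42 ± 0.16 in WT mice (limma, adjusted p = 0.198, not past the threshold) and 0.86 ± 0.16 in KO mice, where Maff rose (adjusted p = 0.000477). The interaction was 1.28 ± 0.23, a 2.43-fold difference between the responses (adjusted p = 0.0223). In 9 of 10 treated KO mice Maff was above every treated WT mouse. Part of the interaction lay in untreated mice, where KO minus WT was -0.43 ± 0.18 (limma, adjusted p = 0.635, not past the threshold).

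A4galt had the lowest p of all genes. It encodes the galactosyltransferase that makes the glycosphingolipid Gb3, the cell surface receptor of Shiga toxin. Its median was 5.53 in untreated WT mice (5.33 to 6.07), 5.83 in treated WT mice (5.25 to 6.16), 4.47 in untreated KO mice (3.97 to 5.43) and 6.54 in treated KO mice (5.98 to 6.97). Untreated KO mice were the low group and treated KO mice the high one: all 10 treated KO values lay above all 6 untreated KO values, a pattern found in 1.09% of genes, while the 2 WT groups overlapped. A4galt rose by 1.90 ± 0.19 in KO mice and differed by 0.23 ± 0.19 in WT mice, an interaction of 1.67 ± 0.26 or a 3.18-fold difference between the responses (limma, adjusted p = 0.0106). The gap had parts in both treatments, because KO minus WT was -0.98 ± 0.21 in untreated mice (adjusted p = 0.0465) and 0.68 ± 0.16 in treated mice (adjusted p = 0.00553). Over the 10 called genes, KO minus WT passed in untreated mice for 3 (A4galt, Nckap5l and Gm31881, against 0.115% of all genes) and in treated mice for 8 (12.8% of all genes); these contrasts share arrays with the interaction.

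Coq10b encodes a mitochondrial protein that binds coenzyme Q and is needed for its function in the respiratory chain. It differed from the other called genes that were clear of the floor in that the change lay in WT mice. The median was 9.70 in untreated WT mice (9.55 to 9.81), 9.06 in treated WT mice (8.88 to 9.21), 9.65 in untreated KO mice (9.28 to 9.90) and 9.56 in treated KO mice (9.31 to 9.81). All 10 treated WT values lay below all 6 untreated WT values (0.890% of genes) and below all 10 treated KO values (0.104% of genes), whereas the 2 KO groups overlapped. Coq10b fell by 0.63 (SE 0.08) in WT mice (limma, adjusted p = 5.1e-05) and differed by -0.03 ± 0.08 in KO mice, for an interaction of 0.60 ± 0.11 (adjusted p = 0.0335). Its second probe set gave 0.73.

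Sdcbp2, Wsb2 and Ppp4r1, like Egln3, had WT responses near 0 and a rise in KO mice. Sdcbp2 encodes syntenin-2, a scaffold protein with PDZ domains that binds membrane phosphoinositides. The Sdcbp2 signal had a median of 9.78 in untreated WT mice (9.61 to 9.92), 9.78 in treated WT mice (9.48 to 10.08), 9.83 in untreated KO mice (9.49 to 10.00) and 10.62 in treated KO mice (10.14 to 11.05). All 10 treated KO mice were above all 6 untreated KO mice (1.09% of genes) and also above all 10 treated WT mice (0.104% of genes), and the other 3 groups overlapped. The KO response was 0.84 ± 0.12, the WT response 0.02 ± 0.12 and the interaction 0.83 ± 0.17 (limma, adjusted p = 0.0468).

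Wsb2 encodes a WD repeat protein with a SOCS box, which brings substrates to a ubiquitin ligase. Its median was 9.25 in untreated WT mice (9.18 to 9.29), 9.27 in treated WT mice (8.99 to 9.48), 9.14 in untreated KO mice (9.06 to 9.20) and 9.71 in treated KO mice (9.35 to 9.95). Every treated KO mouse exceeded every untreated KO mouse (1.09% of genes) and 9 of 10 exceeded every treated WT mouse. The interaction was 0.58 ± 0.10 (limma, adjusted p = 0.0106), made of a KO response of 0.58 ± 0.07 and a WT response of 0.00 ± 0.07. The 2 dimmer Wsb2 probe sets gave 0.44 and 0.15.

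Ppp4r1 encodes a regulatory subunit of protein phosphatase 4. Ppp4r1 had a median of 9.24 in untreated WT mice (9.16 to 9.33), 9.28 in treated WT mice (9.14 to 9.44), 9.03 in untreated KO mice (8.97 to 9.12) and 9.62 in treated KO mice (9.23 to 9.86). It too was higher in all 10 treated KO mice than in any untreated KO mouse (1.09% of genes), and 9 of 10 were above every treated WT mouse. The untreated KO mice were all below the untreated WT mice (0.605% of genes), but that difference of -0.20 ± 0.07 did not pass the test (limma, adjusted p = 0.529). The interaction was 0.55 ± 0.09 (adjusted p = 0.0106), and the rise in KO mice was 0.58 ± 0.07.

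Anapc2, the called gene with an interaction below 0, encodes the cullin-like subunit of the anaphase-promoting complex, the ubiquitin ligase that ends mitosis. Its median was 8.87 in untreated WT mice (8.72 to 8.93), 8.82 in treated WT mice (8.73 to 9.01), 8.93 in untreated KO mice (8.83 to 9.03) and 8.54 in treated KO mice (8.38 to 8.74). All 10 treated KO values were below all 6 untreated KO values (0.956% of genes), and 9 of 10 were below the lowest treated WT value. Anapc2 fell by 0.36 (SE 0.05) in KO mice and differed by -0.01 ± 0.05 in WT mice, for an interaction of -0.36 ± 0.07 (limma, adjusted p = 0.0468), the smallest of the 10 in size.

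The other called genes were dim. Nckap5l, which encodes a centrosomal protein that binds microtubules, had a median of 5.03 in untreated WT mice (4.46 to 5.46), 4.79 in treated WT mice (3.76 to 5.14), 3.40 in untreated KO mice (3.32 to 4.85) and 4.98 in treated KO mice (4.26 to 5.70), and 2 untreated KO arrays were at the floor. Its interaction of 1.69 ± 0.34 (limma, adjusted p = 0.0468) came with a low untreated KO group (KO minus WT -1.34 ± 0.27) and a treated difference of 0.35 ± 0.21 that did not pass the test. Gm31881 was on the floor in all 20 treated mice and in 3 untreated KO mice, so its interaction of 0.63 ± 0.12 is the untreated difference between genotypes and shows no difference between treated groups. Values at the floor have no measured size, so no fold is given for these genes, and the size and sign of a Gm31881 interaction below the floor are not known.

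**Figure D2:**
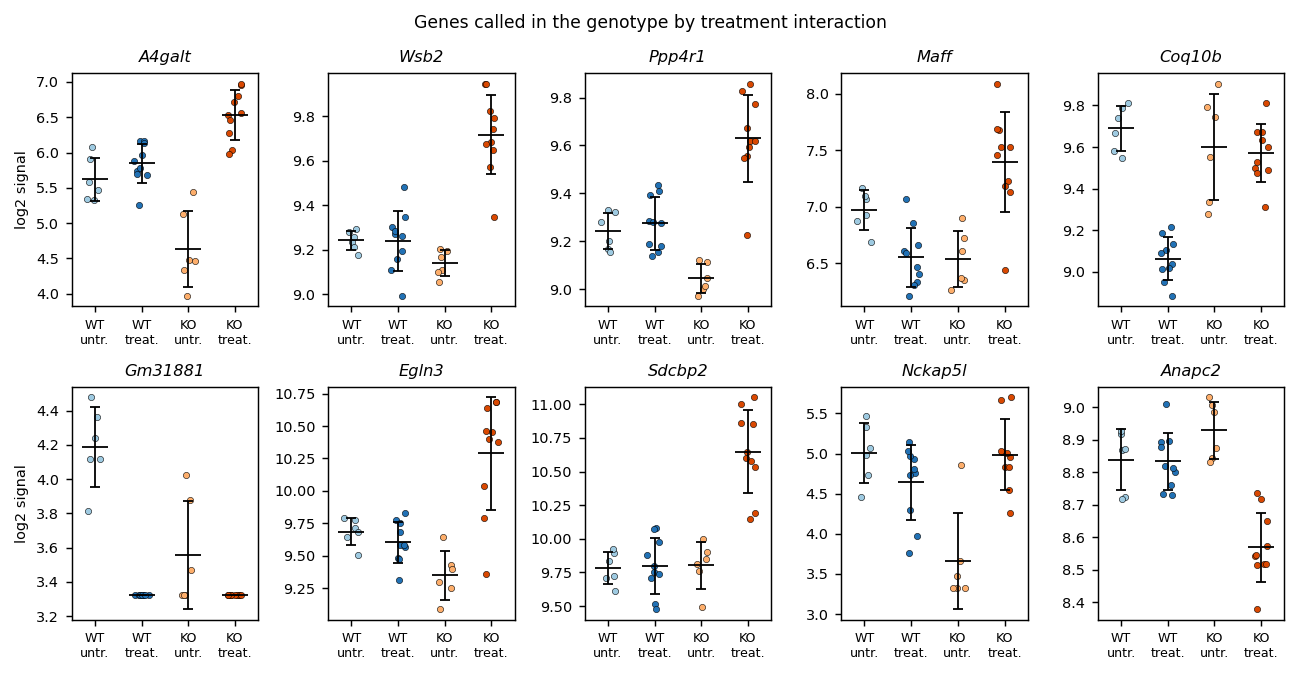
Log2 signal of the 10 genes that passed the interaction test, with one point for each mouse and a bar for the group mean ± SD (6, 10, 6 and 10 mice from left to right). Treated KO mice stand above the other 3 groups in Wsb2, Ppp4r1, Sdcbp2 and Egln3 with few overlapping values, treated WT mice stand low in Coq10b, and Anapc2 is low in treated KO mice.

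The 10 genes passed to different degrees when the processing was varied. Calls were counted at an adjusted p under 0.05 in 45 alternative fits, 32 of which leave out 1 array each; stricter thresholds are not among them. A4galt and Ppp4r1 passed in all 45, Wsb2 in 43, Maff in 38 and Coq10b in 31. Gm31881 passed in 21 of the 44 in which it was tested, Egln3 in 16, Sdcbp2 and Nckap5l in 13 and Anapc2 in 12. At an adjusted p under 0.01 none of them passed, and 4 (A4galt, Maff, Egln3 and Nckap5l) had 1 log2 unit or more. None of the 10 changed sign in these fits. Egln3 stayed between 0.97 and 1.16 and Sdcbp2 between 0.75 and 0.97 over the 45 fits. The 14 probe sets of the called genes had the same direction as the gene.

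Both classes of Xist signal were present in each group. Xist, the RNA that coats the inactive X chromosome of females, was high in 5 and low in 5 mice of each treated group and high in 3 and low in 3 mice of each untreated group, with no value between 5.88 and 11.55; the labels used here give no sex. All 10 called genes had the same sign of interaction in both classes, computed from the group means without a test. The genes were called on these same arrays, so this agreement is not independent of the call. For each of them the estimate was larger in size in the high class. Removal of either treated KO mouse 6 or treated KO mouse 9 raised the number of called genes, and both mice were in the low class. The part of these mice in the difference between the classes was not tested. It was 1.69 in the high and 1.65 in the low class for A4galt, 0.64 and 0.47 for Ppp4r1, and 0.91 and 0.28 for Coq10b. For Sdcbp2 it was 1.08 and 0.57, and for Maff 1.64 and 0.92. With the class as a covariate 5 genes passed (A4galt, Wsb2, Ppp4r1, Maff and Coq10b).

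When each of the 34945 probe sets was tested on its own, 10 passed (0.0286%). They included both Coq10b probe sets and those of A4galt, Wsb2, Ppp4r1, Maff and Gm31881. The others were a probe set of Nipa2, a magnesium transporter gene, with an interaction of 0.64, one of Mall, which encodes a raft protein of the MAL family, with 1.39, and one of Khdrbs1, which encodes the RNA binding protein Sam68, with 0.94. These genes were named after their values were seen. In each the brighter probe set that represented the gene gave less: 0.21 for Nipa2, 0.53 for Mall and 0.06 for Khdrbs1. The Khdrbs1 probe set was also lower in untreated KO than in untreated WT mice, by a KO minus WT difference of -2.36, which was -0.63 for the brightest Khdrbs1 probe set.

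Below 0 only Anapc2 passed, so the 6 genes with the smallest p in that direction included 5 that did not. Clip1, a microtubule plus-end protein, had a median of 7.92 in untreated WT mice (7.73 to 8.13), 8.38 in treated WT mice (8.10 to 8.86), 8.19 in untreated KO mice (8.05 to 8.30) and 8.13 in treated KO mice (7.80 to 8.19). It rose by 0.47 ± 0.09 in WT mice (limma, adjusted p = 0.0059) and differed by -0.12 ± 0.09 in KO mice, with an interaction of -0.59 ± 0.13 (adjusted p = 0.0806). The 4 dimmer Clip1 probe sets gave -0.46, -0.14, 0.04 and 0.10. Tia1, an RNA binding protein of stress granules, fell in KO mice by 0.45 (adjusted p = 0.000314) and had an interaction of -0.50 ± 0.11, and its 5 other probe sets were also below 0. Phc3, a Polycomb protein, had -0.54 ± 0.12, Fam120c -0.58 ± 0.13 and Ube2b, a ubiquitin-conjugating enzyme of DNA damage tolerance, -0.29 ± 0.07. The adjusted p was 0.0885 for each of these 4 genes. The second probe sets of Phc3 and Fam120c had the opposite sign (0.19 and 0.16), and the 3 others of Ube2b lay below 0.

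Gene lists give a wider view, in which single members mostly missed the adjusted threshold. For each list the number of members with an unadjusted p under 0.05 is given, to be read against 6.52% above 0 and 5.18% below 0 over all genes, and the list median against an all-gene median of -0.00066. Counts from other fits have other all-gene levels. These were 7.52% and 7.00% without treated KO mouse 9, and 6.96% and 5.72% without treated KO mouse 6. Without treated WT mice 1 and 2 they were 5.72% and 4.67%. They were 5.24% and 4.60% with squamous and skeletal muscle levels as covariates (the tissue covariates), and 7.46% and 6.33% with weights per group. Over all genes 47.8% of the estimates lay above 0. The lists and their members were chosen with earlier results of these data known, so a share above these levels is not independent evidence. Apart from the called genes and the core genes named by rule, members are named because they had such a p, that is, after their values were seen.

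The hypoxia and glycolysis genes had the highest share among the pathway lists. Of 22 measured members 21 had an interaction above 0, 9 (40.9%) with an unadjusted p under 0.05 and none below 0 with one; the list median was 0.28, with medians of -0.01 for the WT and 0.28 for the KO response. Egln3 passed over all genes. Hif1a, the oxygen-regulated subunit of HIF-1, had a median of 11.59 in untreated WT mice (11.48 to 11.74), 11.65 in treated WT mice (11.34 to 12.09), 11.34 in untreated KO mice (11.12 to 11.47) and 12.19 in treated KO mice (11.65 to 12.60). All 10 treated KO mice were above all 6 untreated KO mice (1.09% of genes) and overlapped the treated WT mice. The untreated KO mice were also all below the untreated WT mice (0.605% of genes). Part of the Hif1a interaction of 0.75 ± 0.16 (limma, adjusted p = 0.069) thus lay in untreated mice. Slc2a1, the glucose transporter GLUT1, had 0.76 ± 0.18 (adjusted p = 0.0918), and Car9, a carbonic anhydrase that HIF induces, had 0.63 ± 0.20 (adjusted p = 0.199).

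Ldha, lactate dehydrogenase A and the brightest member of the list that did not pass, had a median of 12.21 in untreated WT mice (12.13 to 12.24), 12.21 in treated WT mice (12.0036 to 12.38), 12.25 in untreated KO mice (12.15 to 12.38) and 12.56 in treated KO mice (12.28 to 12.66). Its interaction was small, 0.27 ± 0.08 (limma, adjusted p = 0.175), but 8 of 10 treated KO mice were above every treated WT mouse, and Ldha rose in KO mice by 0.27 ± 0.06 (adjusted p = 0.00111). Aldoa (0.29) and Pkm (0.28), both glycolytic enzymes, Higd1a (0.45) and Egln1 (0.22), another HIF prolyl hydroxylase, made up the 9. Without treated KO mouse 9, Hif1a and Slc2a1 also passed over all genes, and the count with an unadjusted p under 0.05 was 10.

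Markers of mature surface colonocytes were the next group. Of 19 mature enterocyte and brush border genes 17 had an interaction above 0, 7 (36.8%) with an unadjusted p under 0.05, and none passed over all genes; the median was 0.39. Krt20, the keratin of surface epithelium, had a median of 11.84 in untreated WT mice (11.74 to 11.98), 11.72 in treated WT mice (10.68 to 12.16), 11.82 in untreated KO mice (11.41 to 11.94) and 12.62 in treated KO mice (11.72 to 12.94). Krt20 rose in KO mice by 0.69 ± 0.19 (limma, adjusted p = 0.00951), differed by -0.14 ± 0.19 in WT mice, and had an interaction of 0.83 ± 0.27 (adjusted p = 0.201). Interactions of the same sign were measured for Cdhr2 (0.68) and Cdhr5 (0.64), which link microvilli, Vil1 (0.46) and Myo1a (0.45), which build the actin core of microvilli, Slc51b (1.14), a bile acid exporter subunit, and Guca2a (0.68), the hormone guanylin. Among the 8 general epithelial markers all had interactions above 0 and 4 had an unadjusted p under 0.05, with a median of 0.16, so the general epithelial signal lay above 0 together with the surface markers; its part in them was not tested.

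Junction and transport genes had members on both sides of 0. Of 17 claudin and tight junction genes 6 had an unadjusted p under 0.05 above 0 and 1 below 0, with a median of 0.11. Cldn4, a sealing claudin, had the lowest p, with a median of 7.58 in untreated WT mice (7.33 to 8.13), 7.45 in treated WT mice (6.95 to 7.72), 7.44 in untreated KO mice (6.98 to 7.73) and 8.11 in treated KO mice (7.47 to 8.45) and an interaction of 0.92 ± 0.21 (limma, adjusted p = 0.0885). Cldn7 (0.36), Cldn23 (0.48), Tjp1 (0.28), which encodes ZO-1, F11r (0.24) and Cdh1 (0.20) also lay above 0. Cldn2, the pore-forming claudin of crypt cells, lay below 0: its median was 9.99 in untreated WT mice (9.77 to 10.21), 7.99 in treated WT mice (6.14 to 9.51), 10.01 in untreated KO mice (9.71 to 10.18) and 5.41 in treated KO mice (3.32 to 9.82), and treated KO mice ranged from the floor to the level of untreated mice. Cldn2 fell by 4.11 (SE 0.63) in KO mice, and its WT difference of -1.93 ± 0.63 did not pass (limma, adjusted p = 0.12). Even so, all 10 treated WT values lay below all 6 untreated WT values (0.890% of genes). The SE rests on a spread shared by the 4 groups, and the SD was 1.89 in treated KO and 1.12 in treated WT mice. The interaction of -2.18 ± 0.89 did not pass either (adjusted p = 0.328). With squamous and skeletal muscle levels as covariates 4 junction members were above 0 at an unadjusted p under 0.05, and the list median was -0.01.

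Of 22 ion and water transport genes 5 were above 0 and 1 below 0 at an unadjusted p under 0.05; with the tissue covariates 1 was above 0, and without treated KO mouse 9, 3 were below 0. Slc9a3, the sodium-hydrogen exchanger NHE3, had an interaction of 1.69 ± 0.46 (limma, adjusted p = 0.148), and Aqp4, a water channel, 0.67 ± 0.28 (adjusted p = 0.343). Aqp8, another water channel, fell in WT mice by 0.78 (adjusted p = 0.00321) and differed by -0.35 ± 0.14 in KO mice, with an interaction of 0.44 ± 0.20 (adjusted p = 0.388). Slc5a8, the butyrate transporter, fell in KO mice by 0.88 (adjusted p = 0.00251) and had an interaction of -0.80 ± 0.28 (adjusted p = 0.247). Among 7 chloride channel regulators 1 was above 0 and 1 below 0 at an unadjusted p under 0.05: Clca4a had 1.49 ± 0.38 (adjusted p = 0.125) and the dim Clca2 -0.72 ± 0.34 (adjusted p = 0.406). Without treated KO mouse 9 or mouse 6, 3 were above 0. Clca4b missed that threshold with 2.16 ± 1.14 (adjusted p = 0.461), with a wider spread: treated KO values of Clca4b ran from 6.81 to 12.94.

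Of 18 enteroendocrine genes 16 had an interaction above 0, 6 (33.3%) with an unadjusted p under 0.05, and the median was 0.38. Pyy, the peptide YY of L cells, had a median of 10.15 in untreated WT mice (9.95 to 10.41), 11.04 in treated WT mice (10.35 to 11.32), 10.21 in untreated KO mice (10.07 to 10.28) and 11.71 in treated KO mice (10.88 to 12.08). It rose in both genotypes, by 0.83 ± 0.14 in WT and 1.35 ± 0.14 in KO mice, and the interaction was 0.52 ± 0.20 (limma, adjusted p = 0.307). Sst, somatostatin, had 0.84, Tac1, the substance P precursor, 0.61, Chgb, a granule protein, 0.55, Neurod1, a transcription factor of these cells, 0.51, and Pcsk1, a prohormone convertase, 0.39. The count fell to 3 without treated WT mice 1 and 2 and to 3 with squamous and skeletal muscle levels as covariates.

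**Figure D3:**
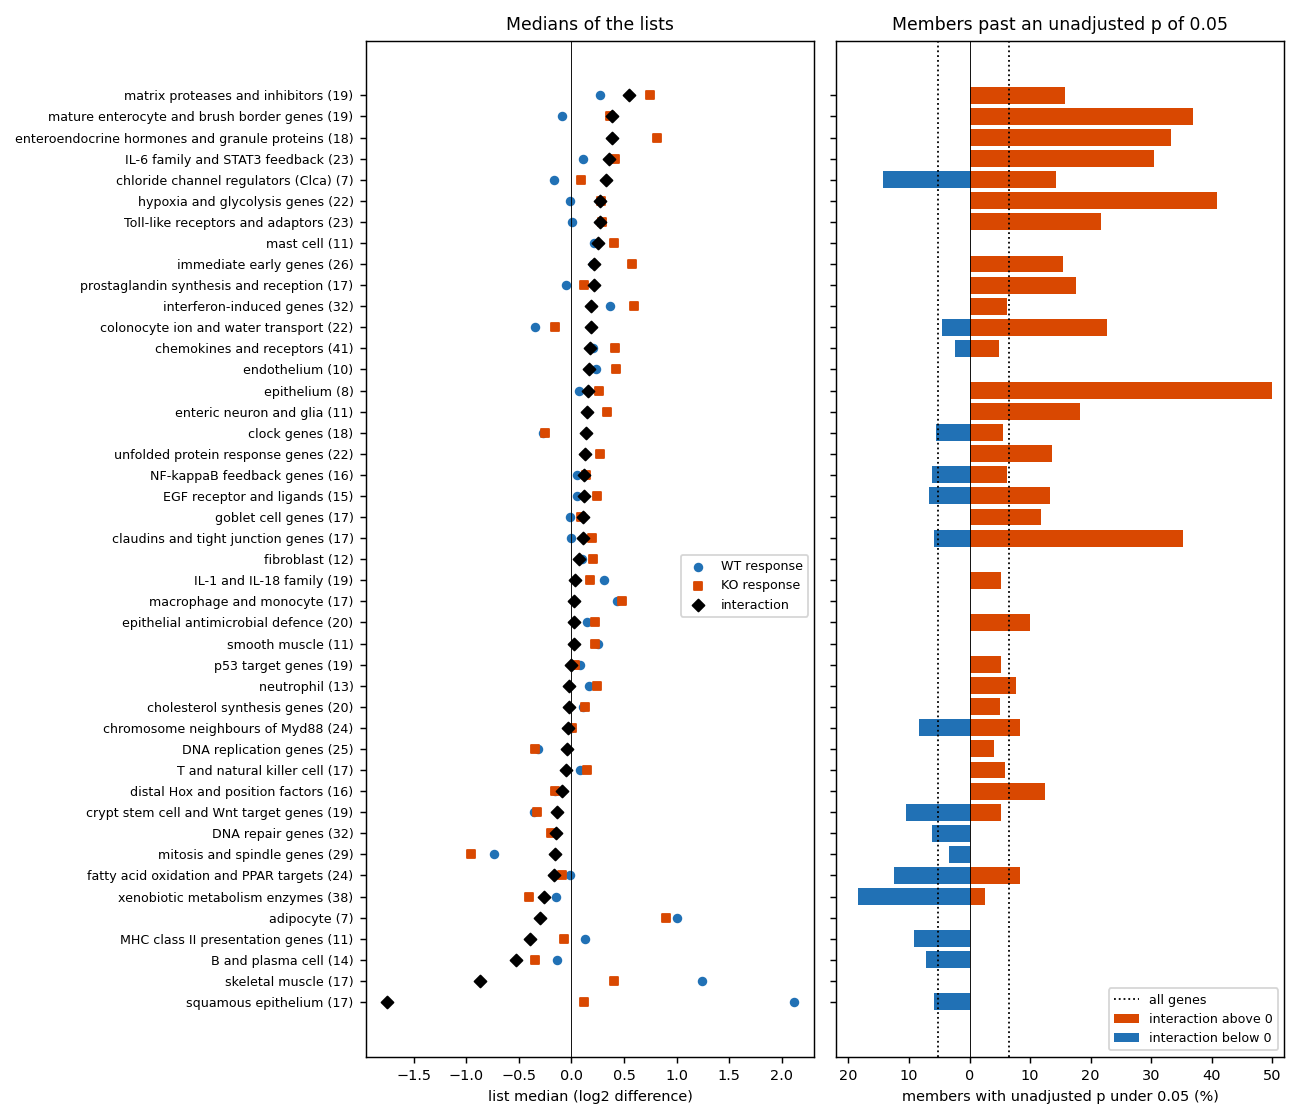
Left, medians of the 44 gene lists for the WT response, the KO response and the interaction (log2), ordered by the interaction, with the number of measured members in brackets. Right, the percent of members with an unadjusted p under 0.05, to the right for interactions above 0 and to the left for those below 0, against the all-gene levels of 6.52% and 5.18% (dotted). Hypoxia, enterocyte, junction, enteroendocrine and IL-6 family lists exceed the dotted line on the right, and squamous and skeletal muscle lists have the lowest medians with almost no members past the threshold.

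Genes of cytokines that signal through STAT3 also lay mostly above 0. Of 23 members of the IL-6 family and its feedback 15 had an interaction above 0, and the lowest was -0.44. An unadjusted p under 0.05 was found for 7 (30.4%), all above 0, with a median of 0.36 over the list. No member passed the test over all genes. The count of 7 was 5 without treated WT mice 1 and 2, 5 with the tissue covariates and 8 without treated KO mouse 9. Among ligands, Il11 had a median of 3.32 in untreated WT mice (3.32 to 4.18), 3.32 in treated WT mice (3.32 to 5.00), 3.68 in untreated KO mice (3.32 to 4.18) and 5.19 in treated KO mice (3.85 to 8.29). No treated KO mouse was at the floor, against 6 of 10 treated WT mice. Il11 rose in KO mice by 1.72 ± 0.42 (limma, adjusted p = 0.00425), and the interaction was 1.57 ± 0.59 (adjusted p = 0.279). Il6 was at the floor in all but 3 treated KO mice, and its interaction was 0.53 ± 0.42 (adjusted p = 0.668). Osm (0.78) and Il23a (0.98) were above 0 at an unadjusted p under 0.05 and close to the floor.

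Downstream of the receptors, Stat3 itself had a median of 9.89 in untreated WT mice (9.80 to 10.02), 10.00 in treated WT mice (9.79 to 10.34), 9.73 in untreated KO mice (9.67 to 9.89) and 10.43 in treated KO mice (9.62 to 10.89) and an interaction of 0.48 ± 0.18 (limma, adjusted p = 0.269). Its rise of 0.62 ± 0.13 in KO mice passed. Socs3, the STAT3-induced inhibitor, rose in KO mice by 2.31 ± 0.53, but treated KO values ran from 6.79 to 11.21, and the interaction of 1.06 ± 0.74 did not pass (adjusted p = 0.614). Socs1, another inhibitor, had 0.97, Il10rb, a shared receptor chain, 0.36, and Junb, an AP-1 subunit, 0.66.

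**Figure D4:**
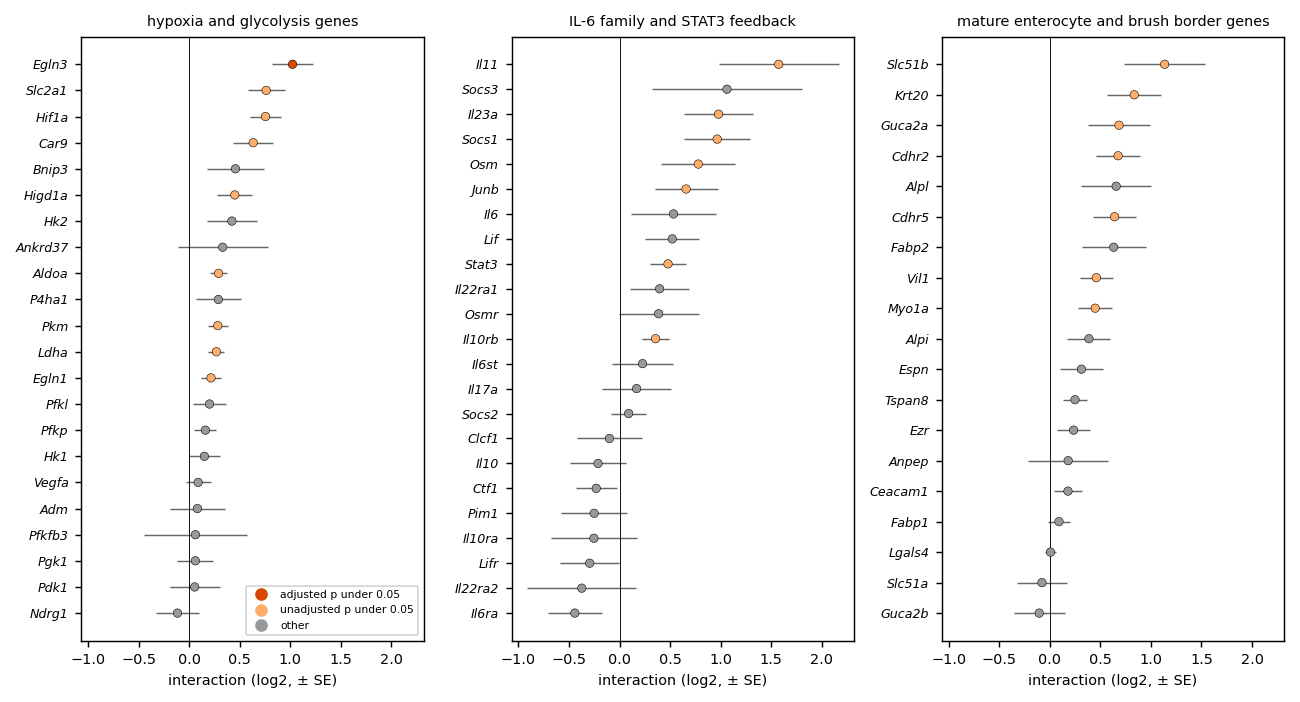
Interaction of each measured member of 3 lists (x axis, log2, bars ± SE), ordered by size, with colours for the adjusted and unadjusted p. In the hypoxia list only Egln3 passed over all genes, 21 of 22 members lie above 0, and in the IL-6 family list the members with the larger values have wide bars.

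The receptor side of the MyD88 route was measured as well. Of 23 Toll-like receptors and adaptors 19 had an interaction above 0 and 5 (21.7%) had an unadjusted p under 0.05, with a median of 0.27. The targeted gene Myd88 was itself a member above 0, and the median is its value. Ticam1, which encodes TRIF, the adaptor of the MyD88-independent arm, had a median of 6.84 in untreated WT mice (6.34 to 6.87), 6.68 in treated WT mice (6.30 to 7.06), 6.59 in untreated KO mice (6.17 to 6.82) and 7.18 in treated KO mice (6.53 to 7.87) and an interaction of 0.75 ± 0.20 (limma, adjusted p = 0.138). Tlr4, the receptor of lipopolysaccharide, had 0.57 ± 0.20 (adjusted p = 0.25), Tlr6 0.66, Tlr13 0.62 and Irak2, a kinase that binds MyD88, 0.31. Without treated WT mice 1 and 2 the count was 3.

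In the IL-1 and IL-18 family 1 of 19 members had an unadjusted p under 0.05, and the list median was 0.03; without treated KO mouse 6 the count was 2. That member was Il1rn, the IL-1 receptor antagonist, with a median of 8.83 in untreated WT mice (8.70 to 8.90), 9.19 in treated WT mice (8.73 to 9.64), 8.73 in untreated KO mice (8.58 to 8.88) and 9.92 in treated KO mice (9.19 to 10.38). Treated KO mice were high and all 10 lay above all untreated KO mice (1.09% of genes), and the interaction was 0.76 ± 0.20 (limma, adjusted p = 0.132). Its 3 probe sets gave 0.76, 0.87 and 0.66. The ligand Il18 had a median of 11.14 in untreated WT mice (10.99 to 11.21), 11.46 in treated WT mice (11.03 to 11.80), 10.93 in untreated KO mice (10.68 to 11.27) and 11.37 in treated KO mice (11.04 to 11.74). It was bright in every group, with overlapping ranges, and its interaction was 0.12 ± 0.15 (adjusted p = 0.814), an estimate that is smaller than its SE. Il18bp, the soluble inhibitor of IL-18, had 0.74 ± 0.53 (adjusted p = 0.63), Il18r1, the receptor chain, 0.25 ± 0.42 (adjusted p = 0.88), and Il1b 0.02 ± 0.41 (adjusted p = 1). These estimates are imprecise and do not show that the genotypes responded alike.

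Of 17 prostaglandin genes 3 had an unadjusted p under 0.05 above 0: Ptgs2, which encodes COX-2, with 1.20 ± 0.57 (limma, adjusted p = 0.407), the prostaglandin E synthase Ptges with 0.48 and the transporter Slco2a1 with 0.43. Ptgs2 values of treated KO mice ran from 6.42 to 10.28 and those of treated WT mice from 5.87 to 7.31. Matrix proteases and inhibitors had the highest list median, 0.54, with 3 of 19 members at an unadjusted p under 0.05 (Mmp13 1.66, Adamts4 1.17 and Plaur 0.60). Without treated WT mice 1 and 2 none of the 19 did (limma), with a list median of 0.50, and without treated KO mouse 6, 5 did. Of 26 immediate early genes 4 did so, Maff, Fosl1 (0.91), Klf6 (0.44) and Junb, while Klf4, the brightest member that did not pass and a transcription factor of differentiated epithelium, had 0.07 ± 0.10. The count of immediate early genes was 2 without treated KO mouse 6, without treated WT mice 1 and 2, and with the tissue covariates.

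Of 41 chemokine and receptor genes 2 (4.88%) were above 0 and 1 (2.44%) below 0 at an unadjusted p under 0.05: Cx3cl1, a membrane-bound chemokine, with 0.44, Ccl3, close to the floor, with 0.76, and Ccl28, a mucosal chemokine for plasma cells, with -0.74. Without treated KO mouse 9, 4 were above 0, and without treated WT mice 1 and 2, 1 was. Of 15 genes on the list of the EGF receptor and ligands 2 (13.3%) were above 0, the ligand Tgfa (0.53) and the list member Nrg1 (0.89). Below 0 was 1 (6.67%), the receptor inhibitor Lrig1 (-0.46), which lost that p without treated WT mice 1 and 2. Cxcl1 (0.07 ± 0.38) and Cxcl2 (0.53 ± 0.54), which attract neutrophils, Tnf (-0.15 ± 0.59) and the EGF receptor ligand Ereg (0.72 ± 0.68) did not pass (limma, adjusted p = 0.983, 0.757, 0.966 and 0.733). Slpi, a secreted protease inhibitor of the epithelium, rose in both genotypes, by 1.97 ± 0.42 in WT and 3.38 ± 0.42 in KO mice, with an interaction of 1.40 ± 0.59 (adjusted p = 0.345). Retnlb, a goblet cell protein, had a larger but less certain interaction of 2.13 ± 1.43 (adjusted p = 0.592), with treated KO values from 3.32 to 11.56. Reg3g was listed at the floor on all 32 arrays.

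On the negative side the xenobiotic metabolism enzymes had the highest share of the pathway lists. Of 38 members 7 (18.4%) were below 0 and 1 above 0 at an unadjusted p under 0.05, and the median was -0.26. Without treated KO mouse 9, 11 (28.9%) were below 0, against 7.00% of all genes in that fit. Sult1a1, a phenol sulfotransferase, had a median of 11.22 in untreated WT mice (11.14 to 11.30), 10.89 in treated WT mice (10.37 to 11.43), 11.31 in untreated KO mice (11.01 to 11.42) and 9.43 in treated KO mice (8.08 to 11.25). It fell in KO mice by 1.71 (SE 0.35; limma, adjusted p = 0.00095) and had an interaction of -1.41 ± 0.49 (adjusted p = 0.237). The glutathione transferases Gstm1 (-0.93) and Gstm3 (-1.20), the cytochromes Cyp2f2 (-1.30) and Cyp3a11 (-0.52), the epoxide hydrolase Ephx1 (-0.51) and the aldehyde dehydrogenase Aldh1a1 (-0.50) were the others below 0. Abcg2, an efflux pump, was the member above 0, with 0.83 ± 0.23 (adjusted p = 0.148).

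Among fatty acid oxidation genes 3 were below 0 (Ppara -0.84, Acadm -0.36 and Acadvl -0.33) and 2 above 0 (Plin2 0.32 and Slc25a20 0.39) at an unadjusted p under 0.05; without treated KO mouse 9 these counts were 5 and 3, and without treated WT mice 1 and 2 they were 4 and 1. Plasma cell and antigen presentation genes had medians below 0, -0.52 over 14 B and plasma cell markers and -0.40 over 11 MHC class II genes, with 1 member each below 0 at an unadjusted p under 0.05. The MHC class II count was 0 without treated KO mouse 9 and also without treated WT mice 1 and 2 (limma), and without treated KO mouse 6 both counts were 2. Of the B and plasma cell markers 4 lay above 0, up to 0.77, none with such a p in the main fit. Without treated WT mice 1 and 2, 2 (14.3%) were above 0 at an unadjusted p under 0.05 (limma). The count above 0 was 1 without treated KO mouse 9, without treated KO mouse 6, with the tissue covariates and with weights per group. Jchain, the joining chain of IgA and IgM, had a median of 12.01 in untreated WT mice (11.78 to 12.55), 11.03 in treated WT mice (10.06 to 11.88), 11.85 in untreated KO mice (10.91 to 12.26) and 9.43 in treated KO mice (8.62 to 10.23). Jchain fell in both genotypes, with responses of -1.10 ± 0.27 in WT and -2.27 ± 0.27 in KO mice, and the interaction was -1.16 ± 0.38 (limma, adjusted p = 0.208).

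Crypt and proliferation genes had few members past the unadjusted threshold. Stem cell and Wnt target genes had 1 member above 0 and 2 below 0 at an unadjusted p under 0.05 among 19, mitosis genes 1 below 0 among 29, DNA replication genes 1 above 0 among 25 and DNA repair genes 2 below 0 among 32, or 4 without treated KO mouse 9. Estimates above 0, whatever their p, numbered 7 of 19, 7 of 29, 11 of 25 and 10 of 32 in this order, against 47.8% of all genes. The list medians were -0.14, -0.16, -0.05 and -0.15. Lgr5, the marker of crypt stem cells, had a median of 6.87 in untreated WT mice (6.72 to 6.98), 4.80 in treated WT mice (4.05 to 6.56), 6.60 in untreated KO mice (6.29 to 6.92) and 4.94 in treated KO mice (3.32 to 6.10). It fell in both genotypes, with responses of -1.86 ± 0.33 in WT and -1.81 ± 0.33 in KO mice. All treated mice of each genotype were below the untreated mice of that genotype (0.890% of genes in WT and 0.956% in KO mice). The interaction of Lgr5 was 0.05 ± 0.47 (limma, adjusted p = 0.999), so its interval spans differences of near 1 log2 unit either way. Ascl2, the transcription factor of these cells, fell in both genotypes (-2.84 in WT and -2.97 in KO mice), with an interaction of -0.14 ± 0.62 (adjusted p = 0.975) and 10 treated mice at the floor. Atm, the kinase that signals DNA double-strand breaks, had -0.51 ± 0.15 (adjusted p = 0.176).

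The lists with the lowest medians belong to tissues that are not colon mucosa. The squamous epithelium list (keratins and cornified envelope genes of stratified epithelium, as in the anal canal) had a median of -1.76, with 16 of 17 members below 0 but 1 with an unadjusted p under 0.05, Krt15, and none below 0 with one without treated KO mouse 9 or mouse 6 (limma). Its mean signal ran from 4.47 to 5.96 in untreated WT, 4.60 to 11.3 in treated WT, 4.34 to 8.01 in untreated KO and 4.59 to 7.90 in treated KO mice. The highest values were those of treated WT mice 1 and 2. The skeletal muscle list had a median of -0.87 with no member at an unadjusted p under 0.05, and its mean signal was highest in treated WT mice by the median: 4.94 in untreated WT (4.81 to 8.97), 6.93 in treated WT (4.82 to 9.98), 5.83 in untreated KO (4.74 to 7.96) and 6.00 in treated KO mice (4.98 to 9.27). With both levels as covariates 9 genes passed the interaction test and the hypoxia count stayed at 9 members, while without treated WT mice 1 and 2, 3 genes passed and the hypoxia count was 10. The fit with the 3'/5' signal ratio of control transcripts as a covariate, a measure of RNA integrity, called 55 genes, among them all 10.

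**Figure D5:**
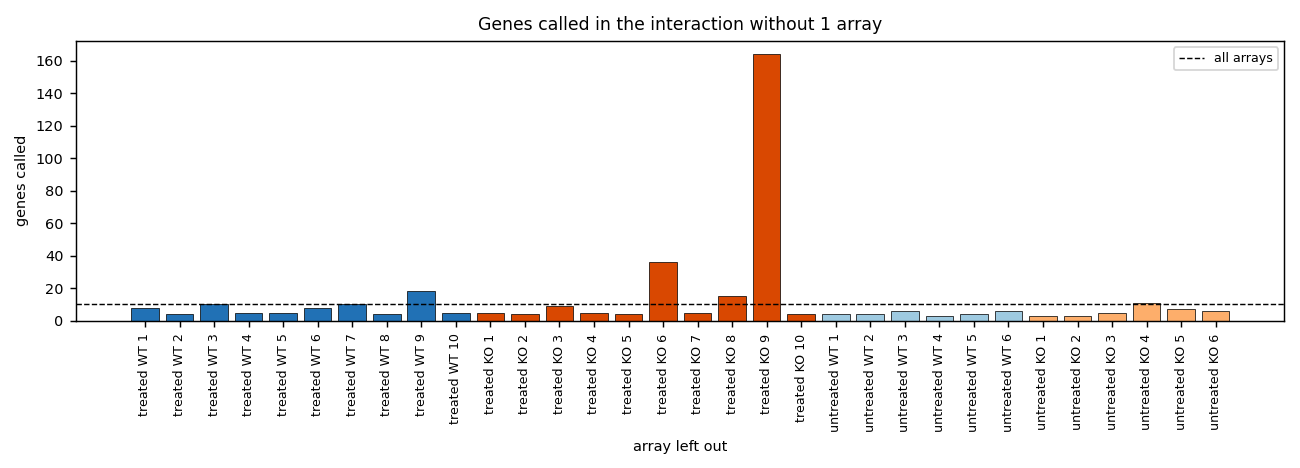
Number of genes that passed the interaction test when each of the 32 arrays was left out in turn (bars, coloured by group), against the 10 called with all arrays (dashed line). Removal of treated KO mouse 9 gave 164 genes and of treated KO mouse 6 gave 36, and most other removals gave 3 to 6.

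The spread between mice was not equal among groups. The median SD of a gene was 0.18 in untreated WT, 0.24 in treated WT, 0.23 in untreated KO and 0.32 in treated KO mice, so the treated KO group had the widest values. Treated KO mouse 9 had the largest median deviation from the other mice of its group, 0.265 over all genes. By this measure it was hardly apart, since treated KO mice 4 (0.258), 1 (0.249) and 3 (0.248) were close. Its median correlation with the mice of its group was 0.959, the lowest of the treated KO mice, with 0.964 to 0.971 for the others. Mouse 9 was the lowest of the 10 treated KO mice for A4galt (5.98), Maff (6.44), Egln3 (9.36), Sdcbp2 (10.14), Wsb2 (9.35) and Ppp4r1 (9.23), and the highest for Anapc2 (8.74). It was also the highest treated KO mouse for genes that fell in both or either genotype: Cldn2 (9.82), Ascl2 (6.59) and Lgr5 (6.10). On these genes it lay nearer to the untreated KO mice than its group did. The 164 genes called without it comprised 109 above 0 and 55 below 0, and all 10 of the genes described first were among them. Members of the lists that joined them were Hif1a, Slc2a1, Il1rn, Clca4a, Cldn4, Slc9a3, Prom1, Abcg2, Epcam and Gfap above 0 and Atm below 0. With weights that allow a different spread for each group 64 genes passed (54 above 0 and 10 below 0). No label sets this mouse apart. It had the highest skeletal muscle level of its group (9.27, next 7.18) and the highest log2 3'/5' ratio of control transcripts (0.0365, next 0.016); the part of these in the count was not tested. All mice are kept in the results above.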

How the data were processed

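The authors deposited log2 probe set signals of 32 Affymetrix arrays, in a table of 45101 probe sets. The software that summarised the probes is not given in the sources used here. From the values, each array had been scaled to the same 2% trimmed mean (150.9 to 151.3 in linear signal), and signals under 10 had been raised to 10, which held 18.7% to 23.9% of the probe sets of an array. The floor shrinks differences of dim genes.

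Signals were quantile normalized. Of the probe sets, 34945 had 1 symbol in the platform annotation, 932 several and 9224 none (named through RefSeq gene tables), and the brightest stood for its gene. The 4 group means were fitted with limma 3.58.1 in R 4.3.3 (28 residual and 1.10 prior degrees of freedom), two-sided, with Benjamini-Hochberg adjustment over 18193 genes. The scripts were tested on simulated data. All deposited columns were mapped to a labelled sample. The labels call the samples biological repeats. They name no batch and no pairs, and the number of mice limits the precision.

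The named genes were the 12 largest interactions of each sign among called genes, without predicted genes. Where fewer than 6 passed, the 6 smallest p were taken. Up to 2 called members of each list, the brightest member not passing in such a list, and 26 core genes (23 measured) were added. The members, lists (31 of pathways, 13 of markers) and core genes were chosen with earlier results of these data known. Alternatives were median centring, the values as deposited, a filter at the 40th percentile of mean signal, averaged or separate probe sets, a replicate block, array or group weights, a trended robust prior, covariates (3'/5' ratio, squamous and muscle level, Xist), stricter thresholds and leaving out arrays.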

Additional observations from a re-analysis of the deposited data

Results flagged for a closer look

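The interaction is itself a test of whether the response differs between genotypes, and 10 genes passed it (limma, adjusted p under 0.05): A4galt 1.67, Wsb2 0.58, Ppp4r1 0.55, Maff 1.28, Coq10b 0.60, Gm31881 0.63, Egln3 1.02, Sdcbp2 0.83, Nckap5l 1.69 and Anapc2 -0.36 (log2). Gm31881 was at the floor in every treated mouse, so its value is the untreated difference between genotypes. The size and sign of its interaction are not known.

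For 40 genes named in the text, each of the 4 groups was checked for a single mouse that stood far from the others, and 9 of 160 checks found one; chance finds about 1 in 20. In treated KO mice these were Ppp4r1 in mouse 9 (9.23, next 9.55), Ascl2 in mouse 9 (6.59, next 4.25) and Slpi in mouse 6 (8.61, next 10.7). In treated WT mice they were A4galt in mouse 2 (5.25, next 5.68) and Il1b in mouse 2 (6.86, next 6.03). In untreated KO mice they were Nckap5l in mouse 4 (4.85, next 3.67) and Klf4 in mouse 6 (12.1, next 12.3). In untreated WT mice they were Il11 in mouse 6 (4.18, next 3.64) and Retnlb in mouse 2 (3.70, all others at the floor). Without treated KO mouse 9 the interaction of Ppp4r1 was 0.60.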

How the results depend on the processing

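The number of interaction calls (10) was 20 with median centring, 6 with the values as deposited, 18 with probe sets averaged, 258 with array weights, 64 with weights per group, 55 with the 3'/5' covariate, 5 with the Xist covariate, 3 without treated WT mice 1 and 2, 0 at an adjusted p under 0.01 (limma; 2128 genes had an unadjusted p under 0.05) and 4 at 1 log2 unit or more. It was 8 with the low signal filter, 10 with each probe set tested, 11 with a trended robust prior and 9 with tissue covariates. Leaving out 1 array gave 3 to 164. With the repeat number as a replicate block 3 genes passed: the labels give the repeats no more than a number, the median correlation of deviations over 40 same-numbered pairs was -0.0044, and 1 of 32 arrays correlated best with its own number. Within a treatment the 16 same-numbered pairs also shared the class of Xist signal (median correlation 0.012, over 0.1 in 2), against 0.027 for 52 pairs of other numbers and the same class.

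A few estimates near 0 changed sign: the Il1b interaction was -0.085, the Cxcl1 interaction -0.016 and the Lgr5 interaction -0.0064 with the values as deposited; Cxcl1 -0.054, Ascl2 0.094 and Lgr5 -0.13 with probe sets averaged; Tnf 0.081 and Ascl2 0.23 with tissue covariates; Ascl2 0.18 without treated WT mice 1 and 2. Leaving out 1 array gave -0.16 to 0.16 for Il1b, -0.36 to 0.066 for Tnf, -0.088 to 0.22 for Cxcl1, -0.44 to 0.045 for Ascl2 and -0.091 to 0.23 for Lgr5. The cause of these changes was not tested. The list counts under other settings were computed after the data were seen. List medians that turned sign under median centring were those of DNA replication, p53 target, cholesterol synthesis, distal Hox, neutrophil and Myd88 neighbour genes.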

Other observations

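Clock genes showed single members on both sides of 0. Per1, a repressor of the clock, fell in WT mice by 0.77 (limma, adjusted p = 0.00872) and differed by -0.08 in KO mice, with an interaction of 0.69 ± 0.22 (adjusted p = 0.201). Clock, an activator, had -0.47 ± 0.14 (adjusted p = 0.173). The list had 1 of 18 members on each side at an unadjusted p under 0.05 (2 above 0 without treated KO mouse 9, without treated KO mouse 6, or without treated WT mice 1 and 2), and no time of sampling was used here.

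Among 22 unfolded protein response genes Edem1 (0.42), Pdia4 (0.71) and Sdf2l1 (0.49) were above 0 at an unadjusted p under 0.05, and 17 of 22 members lay above 0; the count was 5 without treated KO mouse 9, without treated KO mouse 6, and without treated WT mice 1 and 2. Of 11 enteric neuron and glia markers Gfap (1.00, adjusted p = 0.0806) and Nos1 (1.18, adjusted p = 0.201) were above 0. Macrophage, smooth muscle, fibroblast, endothelial, mast cell and adipocyte markers had no member at an unadjusted p under 0.05, and neutrophil and T cell markers 1 each; without treated KO mouse 9 macrophage, mast cell and endothelial markers had 1 each, and without treated KO mouse 6 mast cell markers did. These members were named after their values were seen.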
